A study of Mus musculus with 11 samples.

Results

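The 10 members of a group of calmodulin-dependent kinases were followed in embryonic hearts lacking Pde2A: the 4 genes of CaMKII (Camk2a, Camk2b, Camk2d, Camk2g), Camk1, Camk1d, Camk4, the upstream kinases Camkk1 and Camkk2, and Mylk4, a myosin light chain kinase of the same superfamily. They were taken by symbol, with no threshold on their values, as 10 of the 55487 gene identifiers counted, and all 10 were among the 24177 genes with enough counts to be tested.

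RNA was sequenced from whole hearts of 5 Pde2A-/- embryos (KO) and 6 Pde2A+/+ embryos (WT) at E14.5, 1 stranded mRNA library per heart. The embryos came from matings between Pde2A+/- mice that carry the tm1Dgen allele on a B6; 129P2 background, and the hearts compared here received no treatment. The allele is constitutive and not limited to the heart, and the sources used here give neither litter nor sex for single hearts. Hearts keep the names of their labels (KO A, B, 14, D and 15, and WT 7, 11, 6, 8, H and E), which carry no batch.

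CaM kinases are serine/threonine kinases switched on by calmodulin that has bound calcium. CaMKII works as a large ring of subunits that phosphorylate one another, which keeps the enzyme active after calcium has dropped, and in heart muscle it acts on calcium handling proteins and on transcription. Camk1 and Camk4 need an additional phosphate from a CaM kinase kinase, and this cascade reaches CREB, class II histone deacetylases and AMP kinase. Pde2A breaks down cAMP and cGMP, second messengers that meet calcium signaling at many of these targets.

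The libraries held 35865537 to 42835382 sense counts each. Pde2a itself had 0 to 2 counts in each heart and 7 counts in all, too few to check the genotype of any heart. Gm45837, a gene model counted beside it, had 4 counts in all. A read on more than 1 gene is in no count, and the part of such reads here was not tested. These counts are therefore not read as the level of Pde2a in either genotype. WT 7 stood apart by thymus genes: Rag1, a recombinase of developing lymphocytes, had 1249 counts there and at most 7 in any other heart. The 18 thymus and T cell markers summed there to 205.7 CPM, against 18.1 to 24.7 CPM elsewhere. CPM are counts scaled to library size, with no further step for marker sums and with TMM normalization for single genes. In WT 11 the 6 lung markers summed to 21.5 CPM, against at most 1.07 CPM in the other hearts. All 15 cardiomyocyte markers were read in every heart, and their summed level ranged from 39240 to 45540 CPM in KO and from 39420 to 49770 CPM in WT. The sum of the 12 macrophage markers was higher in every KO heart, from 310.7 to 384 CPM against 153.1 to 238.6 CPM. So was the sum of the 10 erythroid markers, from 644.4 to 1157 CPM against 281.5 to 621 CPM. Not every single marker was separated: Lyz2, Cx3cr1 and Tfrc overlapped between the genotypes. The erythroid marker Alas2 went the other way, with means of 124.3 CPM in KO and 189 CPM in WT that also overlapped in their hearts.

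In Pde2A-/- hearts Camk2b fell by 32% and Camk2a fell by 22.2%, and no member passed the threshold upward. The largest upward estimate, 91.2% for Mylk4, fell just short of it (adjusted p = 0.0535, edgeR). The genotypes were set against each other with the quasi-likelihood test of edgeR, Benjamini-Hochberg adjusted over all 24177 genes, and genes with an adjusted p under 0.05 were called. By that rule 0 of the 10 members were higher in KO, where 8.93% of all genes were, and 2 of 10 were lower, where 5.67% of all genes were. No member passed with a fold change of at least 2, which 2.59% of all genes did. The median log2 fold change of the 10 was -0.02, as it was over all genes tested. The plot of the members by heart shows each value.

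**Figure D1:**
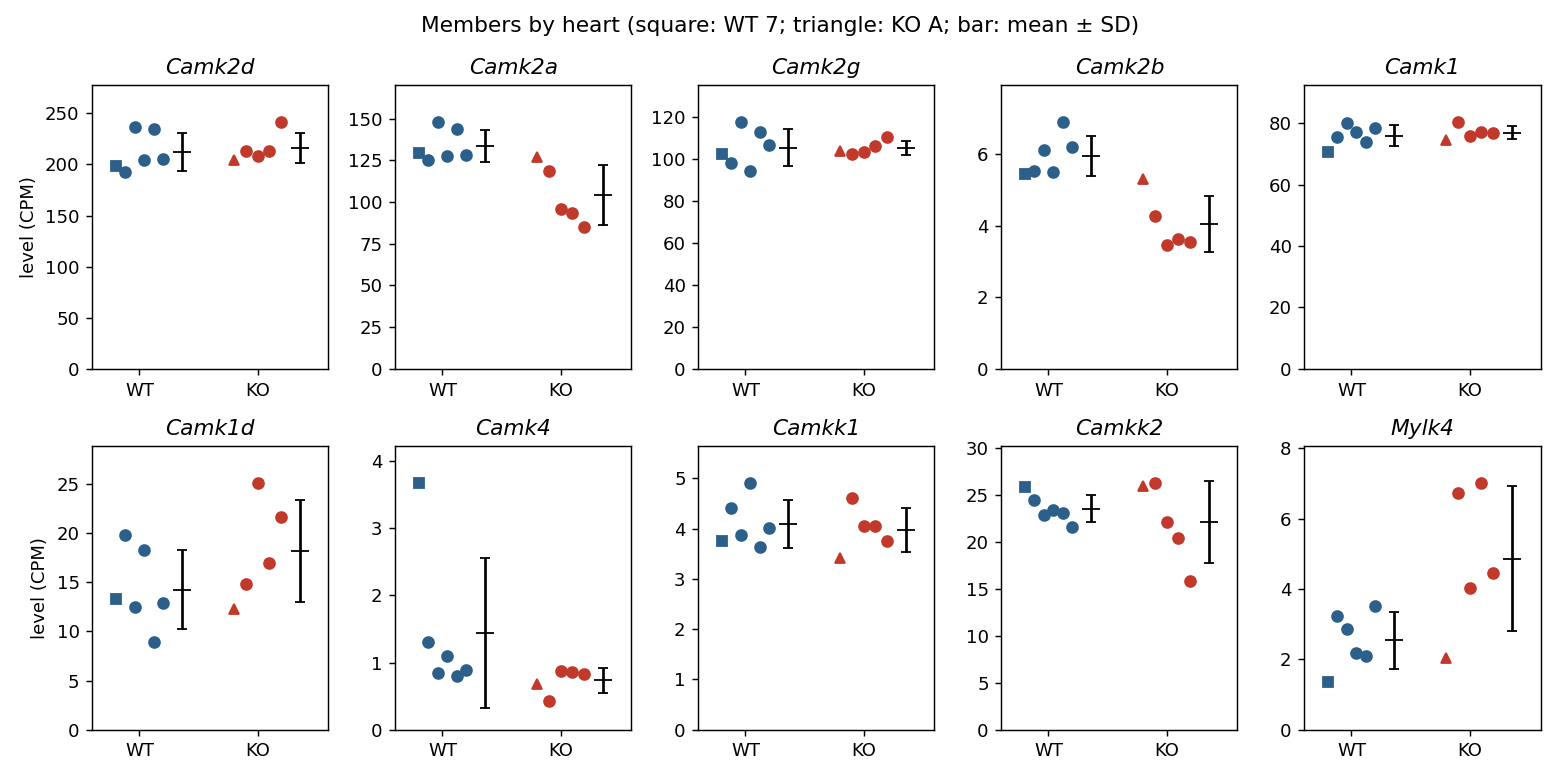
Level of the 10 members in each heart (y axes, CPM, each starting at 0) in WT (6 hearts, blue) and KO (5 hearts, red), with WT 7 as a square, KO A as a triangle and bars for mean ± SD. All 5 KO hearts lie below the WT hearts for Camk2b and 4 of 5 do for Camk2a, while Mylk4 is above the WT range in 4 of 5 and Camk4 is set apart by WT 7 alone.

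The 4 CaMKII genes descend from a common ancestor, and a read can be given to one of them only where their sequences differ. The coding stretch around the threonine that CaMKII autophosphorylates shows how alike and how distinct they are. It is given for the 3 members below from GENCODE M21 transcripts on GRCm38, each 93 bases long and 5′ to 3′ along the coding strand, with the codon of that threonine in capitals:
Camk2b: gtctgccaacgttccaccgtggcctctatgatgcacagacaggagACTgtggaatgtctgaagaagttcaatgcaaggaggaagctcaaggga
Camk2d: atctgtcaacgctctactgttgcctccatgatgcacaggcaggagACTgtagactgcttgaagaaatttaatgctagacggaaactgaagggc
Camk2g: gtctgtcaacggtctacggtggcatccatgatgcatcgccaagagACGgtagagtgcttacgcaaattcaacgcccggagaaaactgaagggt

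Within this stretch Camk2b and Camk2d were identical at 78.5% of the bases, Camk2d and Camk2g at 75.3%, and Camk2b and Camk2g at 71%. Camk2a, whose stretch is not shown, was identical to Camk2b at 83.9%, to Camk2d at 79.6% and to Camk2g at 69.9%. Over their protein-coding transcripts, the longest exact run shared by any pair of CaMKII genes was 23 to 32 bases. None of the members shared exon bases with another gene on its own strand. On the opposite strand, 3.88% of the exon bases of Camk1 lay over Ogg1 and 2.21% of those of Camk4 over 2310026I22Rik.

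Camk2b, the CaMKII subunit that can tie the enzyme to actin, was the member with the clearest difference. The gene lies on chromosome 11 from 5969644 to 6066362 on the minus strand. It was read at 5.32 CPM in KO A, 4.27 in KO B, 3.46 in KO 14, 3.64 in KO D and 3.55 in KO 15. The WT hearts had 5.45 CPM at the lowest, a median of 5.83 and 6.91 at the highest. No KO heart reached the lowest WT heart, although KO A came close to it. Across all genes, 8.49% had groups that did not overlap in either direction. The mean was 4.05 ± 0.781 CPM (SD, n = 5) in KO against 5.96 ± 0.570 CPM (SD, n = 6) in WT, a log2 fold change of -0.56 ± 0.13 (SE) with an adjusted p of 0.0130 by edgeR's quasi-likelihood test. These levels rested on 129 to 278 counts per heart. The call held when any 1 of the 11 hearts was left out, and without WT 7 the log2 fold change was -0.58 (edgeR, adjusted p = 0.0160). It was lost without KO B and KO D together (-0.53, edgeR, adjusted p = 0.0619).

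Camk2a, known best as the neuronal subunit, was read in WT hearts at a level per kilobase close to that of Camk2g, 26.9 against 28.5 CPM per kb, and in KO hearts at 20.9 against 28.5 CPM per kb, without overlap between the 2 genes in KO. It lies on chromosome 18 from 60925618 to 60988152 on the plus strand. The level was 127.1 CPM in KO A, 118.9 in KO B, 95.7 in KO 14, 93.6 in KO D and 84.8 in KO 15. In WT it ran from 125.5 CPM through a median of 129 to 148. Among the KO hearts, 4 of 5 were below every WT heart, and KO A was inside the WT range. The mean was 104 ± 18.04 CPM (SD, n = 5) against 133.8 ± 9.60 CPM (SD, n = 6), with a log2 fold change of -0.36 ± 0.10 (SE) and an adjusted p of 0.0266 by edgeR. The 95% interval of the difference ran from -0.58 to -0.14. The spread in KO, a coefficient of variation of 17.3%, was wider than the 7.17% in WT.

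The call for Camk2a depended on single hearts. It held in 6 of the 11 fits that left out 1 heart and was lost without KO 14 (adjusted p = 0.0721, edgeR), KO D (0.0722), KO 15 (0.0554), WT 6 (0.0585) or WT H (0.0502). Its log2 fold change stayed between -0.44 and -0.30 in all 19 alternatives. Without WT 7 it was -0.37 (edgeR, adjusted p = 0.0390). Among the 7 annotated Camk2a transcripts, 2 protein-coding ones start 37.9 and 38 kb into the gene, where a short product without the kinase domain is known to arise in muscle. Counts per gene do not separate this product from the kinase.

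The 12 neuron markers, which include Tubb3, Snap25 and Syp, summed to 18.3 to 33.4 CPM in KO and 14.2 to 43.8 CPM in WT, with 0 of 12 called in either direction. Of the 15 cardiomyocyte markers, 6 were called lower, where 5.67% of all genes were, 1 was called higher (Nppa, 0.87) and 8 were not called, with a median log2 fold change of -0.18. Ventricular markers (8 genes) summed to 5381 to 7456 CPM in KO and 6327 to 9181 CPM in WT, and KO 14, D and 15, the 3 hearts with the lowest Camk2a, were also the 3 lowest of the 11 in this sum. The sum is carried by Myl2 and Myl3, 0 of the 8 markers were called lower and 1, Kcnj2, was called higher (1.01), and by their mean log2 level WT 11 and WT 8 were lowest. In whole hearts, fewer cells that express a gene and less of its RNA in each cell cannot be told apart, and the part of cell composition in the levels of Camk2a and Camk2b was not tested.

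Camk2d, the main CaMKII gene of heart muscle, did not differ between the genotypes beyond its spread. Its level was 204.1 CPM in KO A, 212.7 in KO B, 208.1 in KO 14, 213.5 in KO D and 241.5 in KO 15, and in WT it went from 192.3 CPM through a median of 205 to 236.6. The mean was 216 ± 14.8 CPM (SD, n = 5) against 212.1 ± 19.0 CPM (SD, n = 6). The log2 fold change was 0.03 ± 0.07 (SE), with a 95% interval from -0.12 to 0.18 and an adjusted p of 0.839 by edgeR.

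Camk2g, the fourth subunit gene and one that is read in most tissues, had nearly equal means, 105.3 ± 3.21 CPM (SD, n = 5) in KO and 105.4 ± 8.85 CPM (SD, n = 6) in WT. The 5 KO hearts lay between 102.6 and 110.6 CPM, inside the WT range of 94.5 to 117.7. The 95% interval of its log2 fold change ran from -0.13 to 0.13 (edgeR, adjusted p = 0.995). The difference of Camk2a and Camk2b from these 2 genes is described next by their shares of the CaMKII pool, without a test.

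Levels of different genes were set side by side per kilobase of the longest protein-coding transcript. In WT hearts the order was Camk1 (50.8 ± 2.23 CPM per kb, SD, n = 6), Camk2d (38.4 ± 3.44), Camk2g (28.5 ± 2.39), Camk2a (26.9 ± 1.93), Camkk2 (4.84 ± 0.301), Camk1d (2.05 ± 0.580), Camk2b (1.48 ± 0.142), Camkk1 (1.20 ± 0.140), Camk4 (0.528 ± 0.410) and Mylk4 (0.456 ± 0.146). Over the 6 WT hearts the ranges of Camk2g and Camk2a overlapped, as did those of Camk1d and Camk2b, Camk2b and Camkk1, Camkk1 and Camk4, and Camk4 and Mylk4. Without WT 7, Camk4 (0.363 ± 0.0777 CPM per kb, SD, n = 5) came below Mylk4 (0.498 ± 0.114) and no longer reached Camkk1. The place of Camk1 rests on its short longest transcript of 1496 bases, against 5975 bases over all its annotated exons.

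Camk2a made up a nearly constant share of the CaMKII pool in WT hearts and a smaller, more variable one in KO hearts. Its share of the summed level per kilobase was 27.7% to 28.7% in the 6 WT hearts. In KO it was 27.8% in KO A, 26.2% in KO B, 22.5% in KO 14, 21.6% in KO D and 18.6% in KO 15. The share of 4 of the 5 KO hearts was below the whole WT range, with means of 23.4 ± 3.68% (SD, n = 5) and 28.3 ± 0.446% (SD, n = 6). The share of Camk2b was 1.12 ± 0.193% against 1.56 ± 0.0895%, with 4 of 5 KO hearts below all WT hearts.

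Camk2d took up 43.7 ± 2.81% of the pool in KO and 40.3 ± 0.775% in WT, and Camk2g 31.8 ± 1.24% and 29.9 ± 0.814%. The whole pool was 89.5 ± 2.88 CPM per kb in KO and 95.3 ± 7.66 in WT, and 3 of the 5 KO sums were inside the WT range of 88 to 105.9. The shares are bound to sum to 100%, so a smaller share of Camk2a comes with larger shares elsewhere. Over all annotated exons instead of the longest transcript, Camk2a was the largest part in WT at 40.3% and Camk2g the largest in KO at 40.8%, beside 34.3% for Camk2a in KO, 37.0% for Camk2g in WT, and 23.8% in KO and 21.2% in WT for Camk2d. Thus the order of the subunits depends on the length used while the sign of each difference does not.

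**Figure D2:**
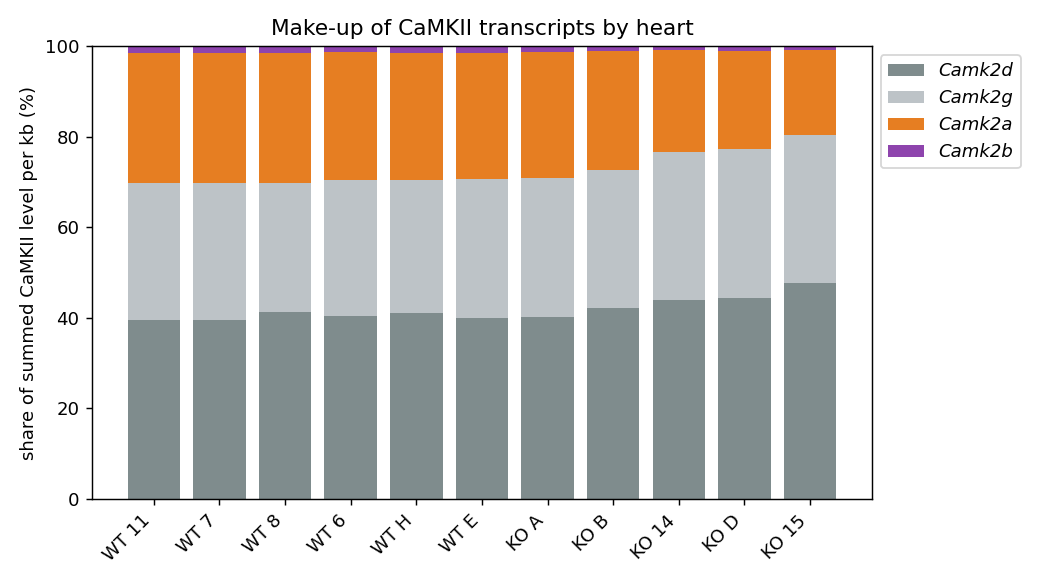
Share of each CaMKII gene in the summed CaMKII level per kilobase (y axis, %) in every heart (x axis), WT hearts first and KO hearts in order of their Camk2a share. The Camk2a segment is 27.7% to 28.7% in the WT bars and narrows to 18.6% in KO 15.

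Camk2n1, an endogenous inhibitor protein that binds the CaMKII kinase domain, rose in every KO heart. It was read at 16.1 CPM in KO A and KO B, 24.1 in KO 14, 23.4 in KO D and 27.1 in KO 15, against 12.2 CPM at the lowest, 14.4 at the median and 15.9 at the highest in WT. The groups did not overlap, as for 8.49% of all genes, with KO A and KO B just above the highest WT heart. The mean was 21.4 ± 4.99 CPM (SD, n = 5) against 14.2 ± 1.68 CPM (SD, n = 6), a log2 fold change of 0.59 ± 0.14 (SE) with an adjusted p of 0.0149 by edgeR. The call held in the 19 alternatives that kept the threshold and not at an adjusted p under 0.01.

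Per kilobase, the ratio of Camk2n1 to the summed CaMKII level was 0.0539 ± 0.0132 (SD, n = 5) in KO and 0.0338 ± 0.00627 (SD, n = 6) in WT. This ratio was above every WT heart in 3 of the 5 KO hearts. KO A (0.0395) and KO B (0.0398) were inside the WT range of 0.0264 to 0.0408. The 3 hearts with the smallest share of Camk2a, KO 14, D and 15, had the 3 highest levels of Camk2n1. KO A and KO B had the largest shares of Camk2a in KO and the lowest Camk2n1. This order over 5 hearts is a description and was not tested.

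**Figure D3:**
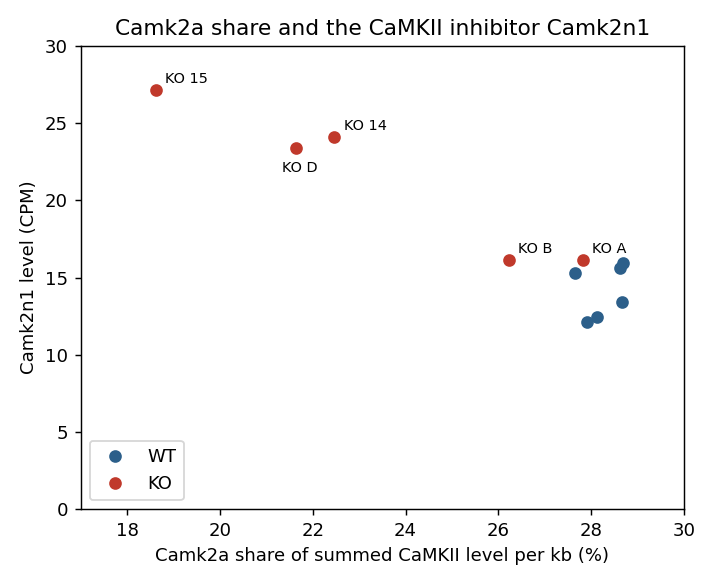
Share of Camk2a in the CaMKII level per kilobase (x axis, %) against the level of Camk2n1 (y axis, CPM) in the 11 hearts, WT in blue and KO in red. KO 14, D and 15 lie apart at shares of 18.6% to 22.5% and 23.4 to 27.1 CPM of Camk2n1, while KO A and KO B lie near the WT hearts.

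Calm2 and Calm3, which encode calmodulin, the calcium sensor that the kinases bind, did not pass the threshold. Calm3 was at 348.5 ± 42.2 CPM (SD, n = 5) in KO and 400.4 ± 13.2 CPM (SD, n = 6) in WT (log2 fold change -0.20 ± 0.07, adjusted p = 0.0699, edgeR). Calm2 was at 261 ± 16.5 and 287.2 ± 11.6 CPM (-0.14 ± 0.05, adjusted p = 0.0772, edgeR). Its 5 KO hearts were all below the 6 WT hearts, but narrowly, at most 277.8 CPM against at least 278.4 CPM. Across all genes, 8.49% had groups that did not overlap. Without WT 7 the adjusted p of Calm2 was 0.134 (edgeR). The change from WT to KO was -13% for Calm3, with KO D the lowest heart, and -9.1% for Calm2, with KO 15 the lowest.

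Camk1, a broadly read kinase of the cascade below the CaM kinase kinases, varied least among the members. It lies on chromosome 6 from 113334124 to 113343984. The 5 KO hearts had 74.7 to 80.4 CPM and the 6 WT hearts 70.6 to 79.9 CPM. The log2 fold change was 0.02 ± 0.04 (SE), with a 95% interval from -0.08 to 0.12 (edgeR, adjusted p = 0.826).

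Camk1d, a close relative of Camk1, ranged widely in both genotypes. It was at 12.3 CPM in KO A, 14.8 in KO B, 25.1 in KO 14, 16.9 in KO D and 21.6 in KO 15, and in WT from 8.87 CPM through a median of 13.1 to 19.8. KO 14 and KO 15 were above all WT hearts and the other 3 were among them. The log2 fold change was 0.35 ± 0.21 (SE), with a 95% interval from -0.13 to 0.82 (edgeR, adjusted p = 0.287). On average, Camk1d was higher in the hearts with numbers as names than in those with letters in both genotypes. In WT the styles overlapped, with WT 6 at 12.5 CPM and WT E at 12.9 CPM. With that naming style as a covariate the log2 fold change of Camk1d was 0.50 (edgeR, adjusted p = 0.0379). What the naming style stands for is not given in the sources used here. Within the lettered hearts (3 KO and 2 WT) the difference of mean log2 CPM was 0.44 and within the numbered hearts (2 KO and 4 WT) it was 0.57.

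Camk1g, another Camk1 paralog in the lists and not a member, was at 11.4 ± 3.39 CPM (SD, n = 5) in KO and 7.69 ± 0.882 CPM (SD, n = 6) in WT. It was called higher (log2 fold change 0.57 ± 0.17, adjusted p = 0.0390, edgeR), but the call held in 3 of the 11 fits without 1 heart and was lost without WT 7 (edgeR, adjusted p = 0.0713).

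Camk4, a kinase of lymphocytes and neurons that phosphorylates CREB in the nucleus, was barely read in these hearts apart from WT 7. It lies on chromosome 18 from 32934931 to 33191228 on the plus strand. It had 26 counts in KO A, 18 in KO B, 35 in KO 14, 31 in KO D and 30 in KO 15. WT 7 had 141 counts, and the 5 other WT hearts had 31 to 48. In CPM, WT 7 was at 3.68 and the other WT hearts between 0.795 and 1.30, while KO lay between 0.425 and 0.871. WT 7 is the heart that holds the thymus genes, and its level of Camk4 was the highest of the 11 beside a summed thymus level that was the highest as well, as the plot of Camk4 against thymus genes shows.

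**Figure D4:**
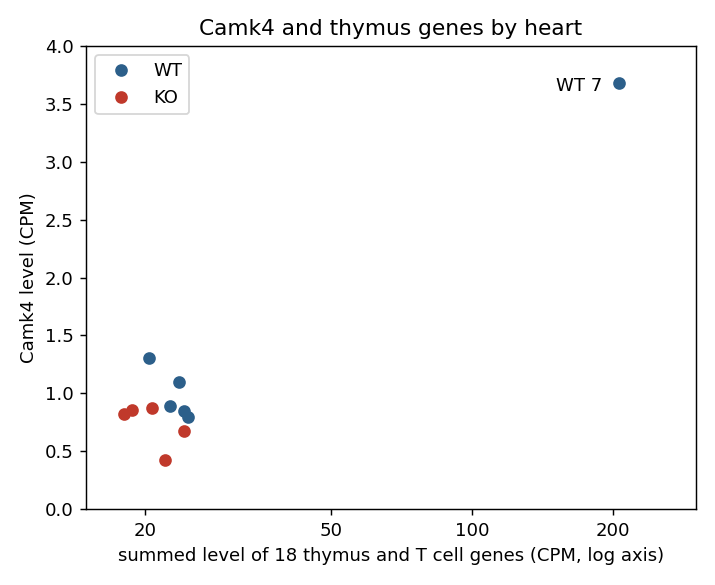
Summed level of 18 thymus and T cell markers (x axis, CPM, log scale) against the level of Camk4 (y axis, CPM) in the 11 hearts, WT in blue and KO in red. WT 7 lies alone at 205.7 CPM of markers and 3.68 CPM of Camk4, and the other 10 hearts reach at most 1.30 CPM of Camk4.

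With all hearts, the log2 fold change of Camk4 was -0.97 ± 0.40 (SE) and did not pass the threshold (edgeR, adjusted p = 0.121). Without WT 7 it was -0.43 ± 0.23 (SE; adjusted p = 0.233, edgeR), with 0.732 ± 0.188 CPM (SD, n = 5) in KO and 0.987 ± 0.211 CPM (SD, n = 5) in WT. The levels of Camk4 in KO and in the 5 remaining WT hearts overlapped. Among the thymus and T cell markers, Cd3e and Rag2 had at most 1 count in each of those 10 hearts. The markers were not all alike. Lck, Tcf7 and Bcl11b were read in every heart, with 89, 137 and 433 counts in KO 15 against 879, 1200 and 967 in WT 7. Cd4, Cd8a, Dntt and Cd8b1 were not raised in WT 7, with 10, 5, 2 and 0 counts there. WT E had 12 counts of Cd4, WT 8 had 8 of Cd8a, and KO 14 had 6 of Dntt. Without WT 7, 7.64% of 23700 genes were called higher and 3.57% lower, and the members still had 0 higher and 2 lower.

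Camkk1 and Camkk2, which phosphorylate Camk1 and Camk4 and, in the case of Camkk2, also AMP kinase, were not called. Camkk1, on chromosome 11 from 73019008 to 73042073, was at 3.98 ± 0.438 CPM (SD, n = 5) in KO and 4.10 ± 0.481 CPM (SD, n = 6) in WT, with a 95% interval of the log2 fold change from -0.30 to 0.21. Camkk2, on chromosome 5 from 122731170 to 122779409, was at 25.9 CPM in KO A, 26.3 in KO B, 22.1 in KO 14, 20.5 in KO D and 15.8 in KO 15, and between 21.5 and 25.8 CPM in WT. The KO hearts thus spread to both sides of the WT range, with 2 above all WT hearts and 2 below. The log2 fold change of Camkk2 was -0.09 ± 0.11 (SE), with a 95% interval from -0.34 to 0.16 (edgeR, adjusted p = 0.643).

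Mylk4, a kinase named for its likeness to the myosin light chain kinases and read mostly in striated muscle, had the largest difference among the members in the upward direction without passing the threshold. It lies on chromosome 13 from 32700834 to 32783954 on the minus strand. It was at 2.04 CPM in KO A, 6.73 in KO B, 4.03 in KO 14, 7.02 in KO D and 4.46 in KO 15. The WT hearts had 1.36 CPM at the lowest, 2.51 at the median and 3.53 at the highest. In KO, 4 of 5 hearts were above every WT heart, and KO A lay within the WT range. The mean was 4.86 ± 2.06 CPM (SD, n = 5) against 2.54 ± 0.813 CPM (SD, n = 6), and the log2 fold change was 0.94 ± 0.30 (SE), with a 95% interval from 0.25 to 1.62 and an adjusted p of 0.0535 by edgeR.

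Mylk4 was called higher in 4 of the 19 alternatives: by DESeq2 (adjusted p = 0.0117), with edgeR's filterByExpr (0.0432), with reads of both strands (0.0484) and without KO A (1.14, adjusted p = 0.00812, edgeR). KO B and KO D, its highest hearts, also had the highest sums of the 12 skeletal muscle markers, 305.7 and 312.8 CPM, against 124.5 to 185.7 CPM in the other KO hearts and 145.3 to 208.3 CPM in WT. Without these 2 hearts the log2 fold change of Mylk4 was 0.47 ± 0.31 (SE, adjusted p = 0.368, edgeR). Mylk4 was also not called without WT 7, its lowest heart (0.81, adjusted p = 0.0852, edgeR). Nor was it called without KO B alone (0.79, adjusted p = 0.102, edgeR) or KO D alone (0.77, adjusted p = 0.15, edgeR). Of the 12 skeletal muscle markers, 1 (Tnnt3) was called higher, where 8.93% of all genes were. Without WT 7, 0 of the 12 were called. Their median log2 fold change was 0.89 with all hearts, and 10 of the 12 estimates were positive. Tnni2 (-0.40) and Acta1 (-0.15) went the other way. Acta1 had the highest mean level of the 12, 120.2 CPM in KO and 133.6 CPM in WT. The part of skeletal muscle RNA in the level of Mylk4 was not tested.

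Neither of its best known relatives was called. Mylk3, the cardiac myosin light chain kinase, was at 499.8 ± 37.5 CPM (SD, n = 5) in KO and 492.9 ± 36.9 CPM (SD, n = 6) in WT (95% interval of the log2 fold change from -0.12 to 0.16). Mylk, the kinase of smooth muscle and non-muscle cells, was at 24.8 ± 3.22 and 29.5 ± 6.99 CPM (log2 fold change -0.25 ± 0.14, adjusted p = 0.256, edgeR), and WT 11 was its highest heart at 42.8 CPM. Per kilobase, Mylk3 was at 133.4 CPM and Mylk4 at 0.456 CPM in WT.

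The genes around the members were taken by list, and the plot of fold changes gives those named, to be read against the 14.6% of all genes called in either direction, 8.93% higher and 5.67% lower. Where groups are given below as not overlapping, 8.49% of all genes did not overlap in either direction. Among 20 other kinases, listed for their family or for their dependence on calmodulin, 4 were higher and 1 lower. The death-associated kinases Dapk2 (log2 fold change 0.43, adjusted p = 0.0105, edgeR) and Dapk1 (0.38, adjusted p = 0.0141) rose, as did Camk1g, while the pseudokinase Trib2 fell (-0.38, adjusted p = 0.0460). Eef2k, the calmodulin-dependent kinase of elongation factor 2, was the fourth that rose (0.37, adjusted p = 0.0470) and was named after its value was seen. It is an alpha kinase outside the CaM kinase superfamily. The median of the list was 0.03, and without WT 7 the counts were 2 higher and 0 lower.

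Among 13 calmodulin genes and calmodulin-binding buffers, 2 were higher and 1 lower, with a median log2 fold change of -0.20. Iqgap1, a scaffold that binds calmodulin (0.26, adjusted p = 0.00740, edgeR), and Gap43, a neuronal calmodulin-binding protein (0.33, adjusted p = 0.0250), rose. Pcp4l1, a relative of the calmodulin regulator Pcp4, fell (-0.27, adjusted p = 0.0165).

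Of 13 inhibitors, phosphatases and anchors, Camk2n1 rose and 4 genes fell, with a median of -0.07. Ppp1r1a, which blocks protein phosphatase 1 once protein kinase A has phosphorylated it, went from 32.9 ± 3.09 CPM (SD, n = 6) in WT to 22.8 ± 2.62 CPM (SD, n = 5) in KO, with no overlap (-0.53 ± 0.08, adjusted p = 0.00161, edgeR). The catalytic subunits Ppp2ca (-0.20, adjusted p = 0.0338) and Ppp1ca (-0.16, adjusted p = 0.0427) fell by small amounts, and so did Ppp2cb (-0.18, adjusted p = 0.0437), named after its value was seen. Without WT 7, Ppp1r1a was the 1 gene of this list still called lower (edgeR, adjusted p = 0.00328).

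**Figure D5:**
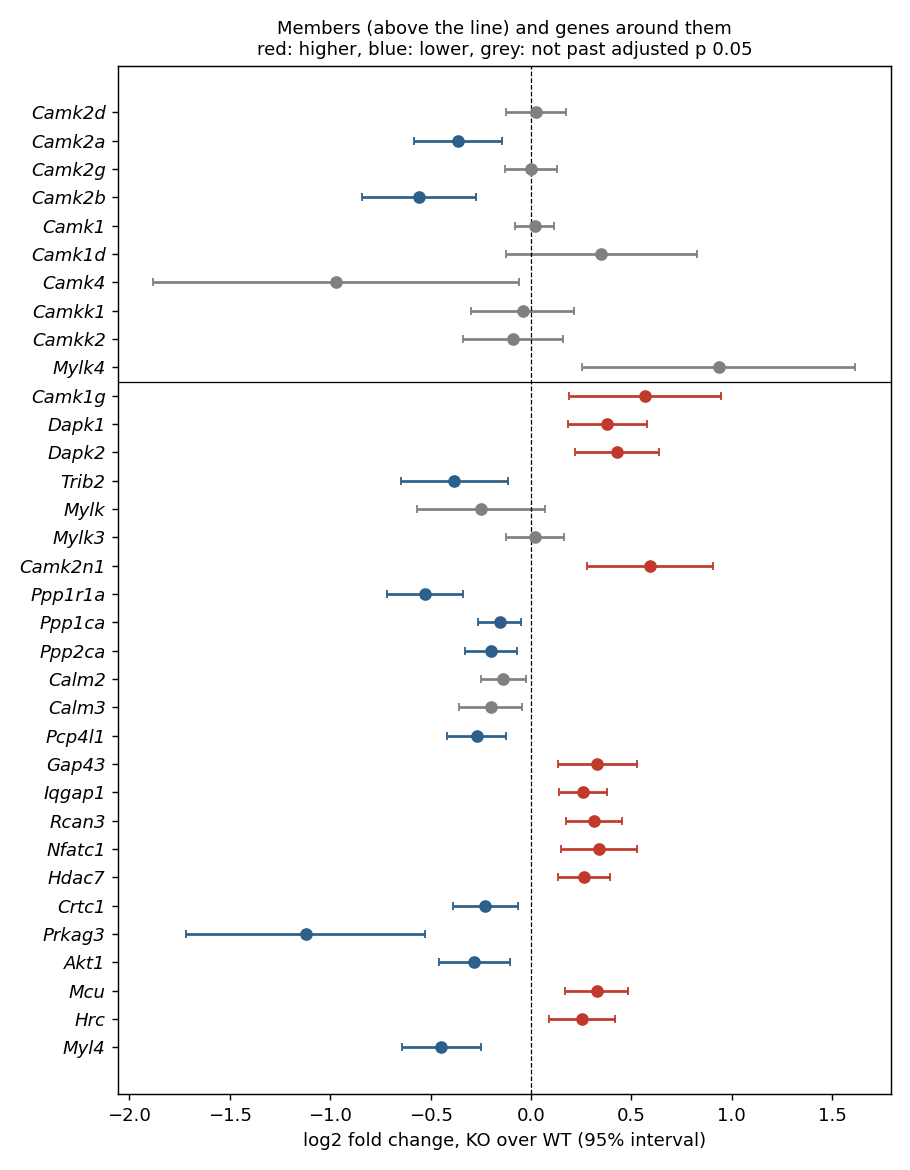
Log2 fold change of KO over WT (x axis, point) with its 95% interval (bar) for the 10 members, above the line, and for named genes around them, below it; red is higher, blue lower and grey not past an adjusted p of 0.05. Camk2a and Camk2b lie to the left of 0 and Camk2n1 to the right, while the intervals of Camk2d, Camk2g and Camk1 are short and span 0.

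The lists of targets each had 2 called genes, to be read beside the 14.6% of all genes. Of 13 genes of calcineurin and NFAT, the other calmodulin-activated route to transcription, Rcan3 (0.32, adjusted p = 0.00612, edgeR) and Nfatc1 (0.34, adjusted p = 0.0189) were higher and 0 lower. Of 16 transcription targets, the class II deacetylase Hdac7 rose (0.26, adjusted p = 0.0101) and the CREB coactivator Crtc1 fell (-0.23, adjusted p = 0.0485), the latter not without WT 7 (adjusted p = 0.0800, edgeR). Of 10 membrane and sarcoplasmic reticulum targets of CaMKII, the mitochondrial calcium uniporter Mcu (0.33, adjusted p = 0.00969) and the calcium-binding protein Hrc (0.25, adjusted p = 0.0338) rose. Hrc was not called without WT 7 (edgeR, adjusted p = 0.0624).

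Of 9 targets of the CaM kinase kinases, 2 were lower. Prkag3, a regulatory subunit of AMP kinase known from skeletal muscle, was at 2.65 ± 1.26 CPM (SD, n = 5) in KO and 5.79 ± 1.14 CPM (SD, n = 6) in WT, with no overlap (-1.12 ± 0.26, adjusted p = 0.0151, edgeR). Akt1 was lower by 0.28 on the log2 scale (adjusted p = 0.0320, edgeR). Of 12 myosin light chain genes and subunits of their phosphatase, 1 was called: Myl4, the atrial essential light chain, fell from 1697 ± 166.9 to 1244 ± 150.4 CPM (-0.45 ± 0.09, adjusted p = 0.00593, edgeR). The calls of Camk2n1, Ppp1r1a, Pcp4l1, Rcan3, Mcu, Prkag3 and Myl4 held in the 19 alternatives that kept the threshold, while at an adjusted p under 0.01 those of Camk2n1, Pcp4l1 and Prkag3 were lost. Of the 11 fits without 1 heart, Gap43 was called in 8, Akt1 and Hrc in 5, Ppp2ca in 4, Trib2, Eef2k, Ppp1ca and Ppp2cb in 3 and Crtc1 in 2.

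The heart-to-heart deviations from the genotype means were compared among the members. Camk2a and Camk2b deviated together (Pearson r = 0.86, Spearman rho = 0.855 over 11 hearts, r = 0.75 without the 2 hearts farthest from the median of Camk2a), and so did Camk2d and Camk2g (r = 0.836, rho = 0.782, 0.731 without 2 hearts). Camk1d and Camk2b deviated in opposite directions (r = -0.836, rho = -0.782, -0.843 without 2 hearts). These are descriptions over hearts that share their depth and cell make-up. Among 14024 genes that averaged 1 CPM or more, those whose deviations were most like those of Camk2a were Cep63, Phtf2 and Top2b, with r of 0.982, 0.982 and 0.98, and those most like Camk2b were Acad8, Mfap3l and Tmem14a, with r of 0.958, 0.954 and 0.945.

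The stretch of 250 bases before to 50 bases after the start was read for the members in RefSeq's promoters of GRCm38.p6, with 8 entries for 7 members. Camk2a, Camk2g and Camk4 had no entry. Both strands were searched for the cAMP response element (CRE) by its full palindrome, for its core TGACG, the E box CACGTG, the GATA motif AGATAA and the TATA box TATAAA. None of the 8 entries held the full CRE, which 1.79% of 32851 promoters of this length did. The core, which 20.8% held and every full palindrome contains, was found in Camk1, 185 bases before the start, and in Camkk1, 166 bases before it. The 60 bases around each are shown because the CRE is the element that CREB, a target of Camk1 and Camk4, binds, with the core in capitals (Camk1 at chr6:113344078-113344137 on the minus strand and Camkk1 at chr11:73018792-73018851 on the plus strand):
Camk1: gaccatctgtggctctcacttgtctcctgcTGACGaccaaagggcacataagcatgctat
Camkk1: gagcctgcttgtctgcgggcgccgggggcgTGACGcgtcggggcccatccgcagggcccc

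Neither gene differed between the genotypes beyond its spread. The promoter of Camk2b, the member that fell in every KO heart, lies at chr11:6065749-6065998 on the minus strand, up to the start that RefSeq uses, and held none of the 5 motifs. That start lies inside the gene as GENCODE draws it, whose farthest start is at 6066362. The 250 bases before the RefSeq start are shown without capitals, and the 50 bases after it, which were searched too, are not shown:
Camk2b: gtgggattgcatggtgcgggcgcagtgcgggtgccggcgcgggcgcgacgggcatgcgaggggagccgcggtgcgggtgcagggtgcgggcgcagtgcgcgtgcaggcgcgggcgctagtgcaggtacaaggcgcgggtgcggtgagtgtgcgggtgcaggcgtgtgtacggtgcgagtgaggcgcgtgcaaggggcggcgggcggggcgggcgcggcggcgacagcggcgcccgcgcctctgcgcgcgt

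The E box, the GATA motif and the TATA box, which 7.15%, 11.2% and 13.6% of the promoters held, were absent from the 8 entries. A match or its absence describes these letters in this window and says nothing of binding.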

How the data were processed

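Whole embryonic hearts were sequenced from stranded mRNA libraries on a NextSeq 500 with single-end reads. Per the submitters' processing notes, reads were mapped to GRCm38 with STAR, whose version is not given in the sources used here. The authors deposited raw counts per gene for each heart, unstranded and for each strand. The column for the reverse strand (column 4) was used. In it 19.6% to 22.4% of reads were assigned to no gene and stayed out of library sizes. This share takes in unmapped reads, reads mapped to several places, reads off genes and reads on more than 1 gene. A read on more than 1 gene is in no count. Genotypes were taken from the labels, and where nothing says that hearts came from separate litters, p-values measure the spread between these hearts.

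Of the identifiers, 55227 of 55487 matched GENCODE M21 and 260 did not. Genes whose counts summed to 10 or more over the 11 libraries were tested with edgeR 4.0.16 in R 4.3.3 (TMM, quasi-likelihood test, Benjamini-Hochberg adjustment over all genes tested); 95% intervals use 9 degrees of freedom and are not adjusted for the number of genes. CPM of single genes are TMM-normalized, and their log2 CPM use a prior count of 2. Marker sums are scaled to library size alone. Scripts were tested on simulated data. DESeq2 1.42.0, its size factors, other filters, reads of both strands, naming style, an adjusted p of 0.01 and leaving out hearts were the alternatives, and leaving out KO B with KO D, WT 7 with WT 11, and the alternatives for single pathway genes were added after the data had been seen. Named genes are the members, at most 4 called genes per list by smallest p, Calm2, Calm3, Camk2n1, Mylk3 and Mylk, and the 3 genes most like each called member. The members and lists were chosen with earlier results of these data known, and Myl12b, a symbol of 2 genes, was left out. A list gene is not reported here singly, though its list was counted with it. Plots used matplotlib 3.10.9.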

Additional observations from a re-analysis of the deposited data

Results flagged for a closer look

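In 3 results there was a heart far from the others of its genotype, by the gap to its nearest neighbour over the range of the group, out of 40 groups examined; chance alone marks about 1 in 20. Camk2d in KO 15 was at 241 CPM, with a gap of 0.75 of the range of the 5 KO hearts. Camk4 in WT 7 was at 3.68 CPM, with a gap of 0.823 of the range of the 6 WT hearts, in the heart that also held the thymus genes. Mylk in WT 11 was at 42.8 CPM, with a gap of 0.642 of the range. That heart also had the highest lung marker sum, with counts for 4 of the 6 lung markers.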

How the results depend on the processing

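Over the 10 members and the 19 alternatives that kept the threshold, 160 log2 fold changes kept their direction and side of the threshold, 18 changed sign, 7 lost a call and 5 gained one; Camk2b was called in 18 of 19 alternatives and Camk2a in 13. Members called higher were 1 in place of 0 with DESeq2, filterByExpr or reads of both strands (Mylk4) and with naming style as a covariate (Camk1d), and 0 to 1 without single hearts. Members called lower were 0 at an adjusted p of 0.01 or without KO B and KO D, and 1 to 2 without single hearts. Over all genes, 1372 were lower and 2160 higher; the lower were 2354 with DESeq2, 142 at 0.01, 471 without KO B and KO D, 744 without WT 7 and WT 11, and 414 (without KO D) to 2165 (without KO A) without single hearts; the higher were 889 at 0.01, 1353 without KO B and KO D, and 1288 to 2887 without single hearts. Values near 0 changed sign: Camk2g was 0.0051 with no filter, 0.0055 with reads of both strands and 0.0086 without KO B and KO D; Camk1 was -0.0050 without KO B and KO D and -0.0121 without WT 7 and WT 11, where Camk2d was -0.0331. Without single hearts, Camk1 ranged from -0.0020 to 0.0370, Camk2d from -0.0136 to 0.0638, Camk2g from -0.0258 to 0.0367, Camkk1 from -0.1004 to 0.0208, Camkk2 from -0.1597 to 0.0118 and Mylk3 from -0.0169 to 0.0491. Mylk3 was -0.0161 with naming style as a covariate and -0.0422 without WT 7 and WT 11. Without WT 7 the list of other kinases had 2 higher and 0 lower. Inhibitors and phosphatases then had 1 lower, transcription targets 0 lower and membrane targets 1 higher. Over all exons the Camk2g share differed by 3.76 percentage points, against 1.93 over the longest transcript. The causes were not tested, apart from the stricter threshold and the fewer hearts. No paired analysis was possible because the genotypes share no replicate names in the labels. Depth limits Camk4, with 18 to 48 counts in 10 hearts.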
